A study of Mus musculus with 33 samples.

Results

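The nuclear genes of oxidative phosphorylation were chosen by symbol: every gene of the files whose name begins with Ndufa, Ndufb, Ndufc, Ndufs, Ndufv, Uqcr, Cox4i, Cox5, Cox6, Cox7, Cox8 or Atp5, and Sdha to Sdhd. The rule found 94 of 32285 genes. They comprised 37 genes of complex I, 8 complex I assembly factors (Ndufaf1 to Ndufaf8, which the prefix also takes in), 4 of complex II, 8 of complex III, 20 of complex IV and 17 of complex V. Ndufa4 and Ndufa4l2 carry a complex I symbol but encode complex IV subunits and were counted there. The rule uses symbols and no measured value, but the set was chosen with earlier results of these data known.

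Oxidative phosphorylation takes place in the inner mitochondrial membrane. Complex I (NADH dehydrogenase) and complex II (succinate dehydrogenase, also an enzyme of the citrate cycle) pass electrons to ubiquinone, complex III passes them to cytochrome c, and complex IV (cytochrome c oxidase) passes them to oxygen. Complex V (ATP synthase) uses the proton gradient built by complexes I, III and IV to make ATP. Most subunits are encoded in the nucleus and imported. A core set is encoded by the mitochondrial genome, and complex II is built from nuclear genes alone. Mature neutrophils hold few mitochondria and depend mainly on glycolysis, whereas tissue macrophages rely more on respiration.

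The samples were single cells of mouse bone (femur and tibia), brain, liver and lung in which SAMENT, a method that labels the neighbours of injected cells with biotin, had been run with its substrate overnight. Sorting then gave biotin positive cells, called tagged here, and biotin negative cells, called untagged. The intracardiac injection gave 4 samples of each sort in each of the 4 tissues, 32 in all, made with 3' libraries and CellPlex multiplexing. The IIA injection, named only so in the labels, gave 1 pooled 5' library of bone whose 12 hashtags mark a tagged and an untagged sample for each of injections 1 to 6. The hashtags of the count matrix were matched to the authors' hashtag list by the number in their names, and every IIA value by sort rests on that match. The labels give no strain, age, tumour line or uninjected control, and they do not say whether samples came from separate animals, so p-values measure the spread between these samples. No uninjected tissue is among the samples, so untagged cells are not cells of a healthy animal.

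The authors deposited UMI counts, that is, counts of captured RNA molecules. Levels below are UMIs per 1000000 UMIs (CPM) summed over the named cells of a sample, and a level is not compared between genes. Per sample the intracardiac data held 94 to 3505 kept cells and 482617 to 44834665 UMIs, and the IIA samples at most 3480 cells and 2149784 to 27903856 UMIs. Cell classes stand for clusters that resemble a type by its marker genes (neutrophil-like, macrophage-like and so on, written without the suffix), and the 94 genes were kept out of the genes used for clustering. The phagocyte set joins the monocyte, macrophage, microglia and alveolar macrophage clusters. Fold changes are log2 values of tagged over untagged with their standard error, from edgeR's quasi-likelihood test with TMM scaling and Benjamini-Hochberg adjustment over all genes tested, and a gene was called at an adjusted p under 0.05. TMM scaling sets the median gene near 0. Scaling by library size alone moved that median by 0.158 to 0.314 in the sort comparisons of all intracardiac cells and phagocytes, by 0.244 in all IIA cells and by -0.116 in IIA phagocytes.

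Promoters of the members are described by their letters, and no link of a motif to the comparisons below was tested. Their motif rates stand beside those of all genes with a window, whether or not these cells expressed them. RefSeq (GRCm38.p6) promoter windows, from 250 bases before to 50 bases after a gene's start, matched 75 of the 94 members by symbol. The NRF1 motif was found in 19 of these 75 genes (25.3%) and in 5.19% of 27025 genes with a window. The GABPA or ETS motif CCGGAAG was found in 19 (25.3%) against 9.93%, the YY1 motif in 5 (6.67%) against 0.75%, and the ERR alpha motif TCAAGGTCA in 2 (2.67%) against 0.47%. Both strands were searched, and matches of different motifs may overlap. NRF1, GABPA, YY1 and ERR alpha are factors known for their part in mitochondrial gene expression; a match is a description of letters and not a bound site. The 4 windows below give the 250 bases before the start on the gene's strand, 5′ to 3′, with motif matches in capitals. Atp5h (chr11:115419920-115420169, minus strand) was lower in tagged phagocytes of brain, lung and IIA bone. Uqcr11 (chr10:80406822-80407071, minus strand) rose in tagged IIA bone. Cox6a1 (chr5:115348959-115349208, minus strand) and Cox7a1 (chr7:30183921-30184170, plus strand) are a widely used and a muscle type isoform of 2 different complex IV subunits.
Atp5h: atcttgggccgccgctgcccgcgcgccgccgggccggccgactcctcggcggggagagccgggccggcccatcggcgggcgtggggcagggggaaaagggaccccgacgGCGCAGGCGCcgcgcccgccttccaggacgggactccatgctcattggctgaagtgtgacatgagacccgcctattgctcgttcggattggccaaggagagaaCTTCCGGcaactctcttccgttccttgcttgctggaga
Uqcr11: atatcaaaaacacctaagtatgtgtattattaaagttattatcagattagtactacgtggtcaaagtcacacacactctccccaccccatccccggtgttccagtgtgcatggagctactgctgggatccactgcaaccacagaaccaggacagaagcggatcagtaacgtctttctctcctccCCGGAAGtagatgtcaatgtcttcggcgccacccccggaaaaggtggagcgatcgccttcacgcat
Cox6a1: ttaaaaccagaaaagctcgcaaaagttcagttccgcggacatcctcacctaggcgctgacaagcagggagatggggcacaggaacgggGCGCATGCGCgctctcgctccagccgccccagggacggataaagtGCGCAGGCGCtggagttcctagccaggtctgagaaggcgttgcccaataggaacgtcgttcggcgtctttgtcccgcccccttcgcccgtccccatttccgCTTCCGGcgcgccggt
Cox7a1: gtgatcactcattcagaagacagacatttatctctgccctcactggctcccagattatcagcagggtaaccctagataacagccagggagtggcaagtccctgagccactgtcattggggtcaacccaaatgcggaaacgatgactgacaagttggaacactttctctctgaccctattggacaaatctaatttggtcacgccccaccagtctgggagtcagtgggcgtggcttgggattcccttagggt
Counted from the start, with -1 the base before it, Atp5h carried an NRF1 match at -141 to -132 and a GABPA or ETS match at -38 to -32. Uqcr11 carried a GABPA or ETS match at -66 to -60. Cox6a1 carried NRF1 matches at -162 to -153 and at -117 to -108 and a GABPA or ETS match at -16 to -10. Cox7a1 carried none of the 4 motifs in this window. Cox7a2, the isoform paired with it, and Cox5a, Cox5b, Cox7b and Cox7c carried none in their full windows either. Cox6b1 and Cox8a each carried a GABPA or ETS match, so the 4 printed windows are examples only.

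Neutrophils held the lowest summed level of the 86 subunit genes among 12 named classes of untagged intracardiac cells, 8204 ± 693 CPM (SD, n = 16 samples, range 6967 to 9510). Above them lay plasma cells at 14111 ± 2477 CPM (n = 8), endothelial cells at 15458 ± 1778 CPM (n = 5), B cells at 16502 ± 1425 CPM (n = 16) and T cells at 17694 ± 1353 CPM (n = 16). Granulocyte precursors, at 17582 ± 4767 CPM (n = 14), spanned the widest range. NK cells reached 20608 ± 1454 CPM, dendritic cells 22526 ± 1430 CPM and monocytes 26067 ± 1487 CPM (n = 16 each), with macrophages at 21630 ± 3908 CPM (n = 14) and plasmacytoid dendritic cells at 24163 ± 2030 CPM (n = 10). From plasma cells upwards the sample ranges of neighbouring classes overlapped, and every neutrophil value lay below every sample value of the other 11 classes. Unnamed clusters stand outside this order. Pooled over both sorts, they lay at 31009 CPM (cluster 10), 22685 CPM (cluster 28) and 15176 CPM (cluster 29). Classes come from clustering, so these levels carry no test.

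**Figure D1:**
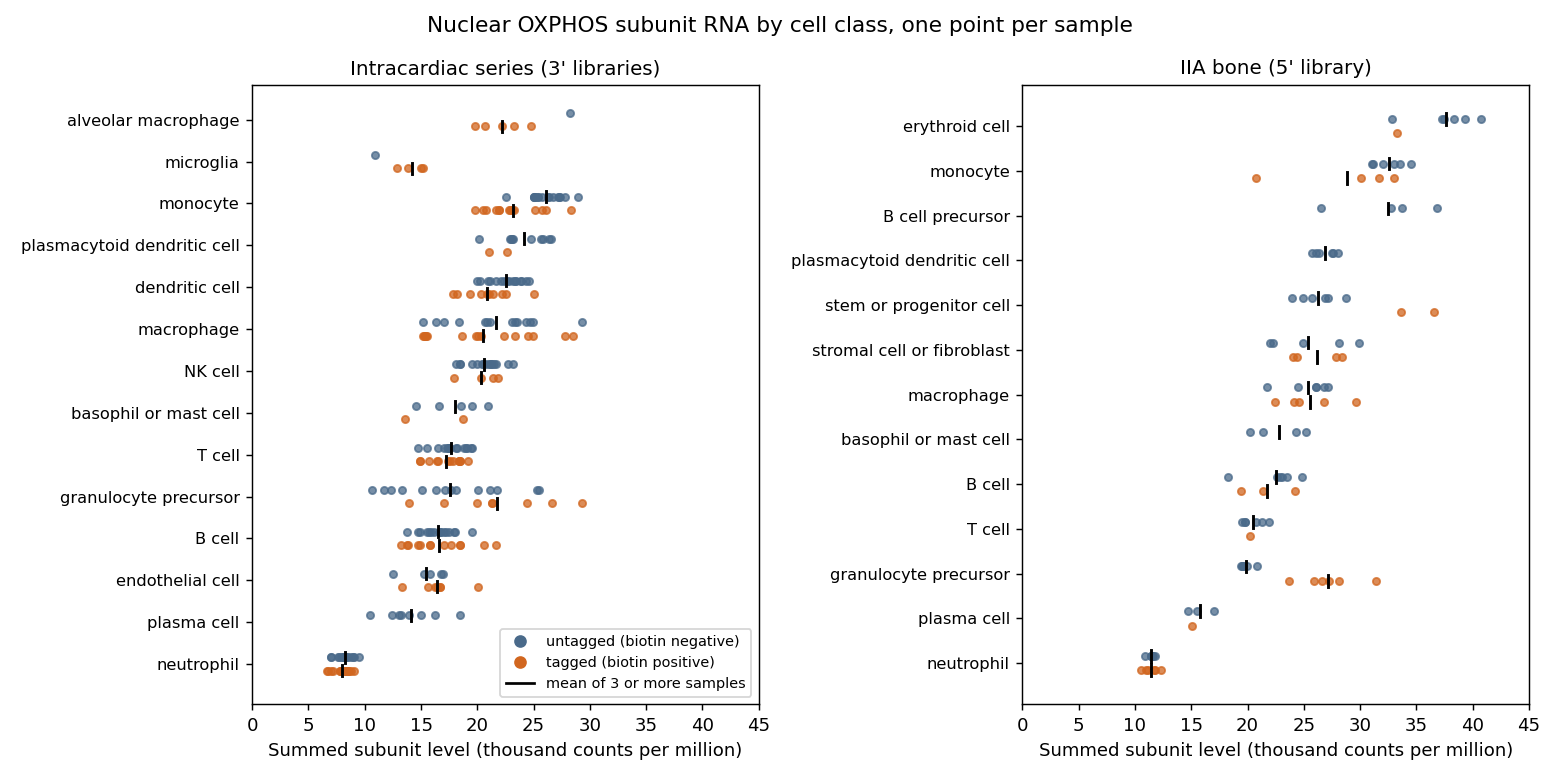
Summed CPM of the 86 nuclear subunit genes (x axis, in kilo-CPM) by cell class, with 1 point per sample, untagged in blue and tagged in orange, and a bar at the mean of 3 or more samples; intracardiac samples left, IIA bone right. Among the named classes neutrophils lie lowest in both panels, at 6967 to 9510 CPM in the untagged intracardiac samples.

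In the IIA library neutrophils were again the lowest of the named untagged classes, at 11444 ± 288 CPM (n = 6). Erythroid cells, which build haem in mitochondria, were the highest named class at 37661 ± 2708 CPM (n = 6), followed by monocytes at 32529 ± 1386 CPM (n = 6) and B cell precursors at 32448 ± 4342 CPM (n = 4). Unnamed clusters, which held a mean of 23.7% of untagged IIA cells, stand outside this order. Pooled over both sorts, unnamed clusters 8 and 4 lay at 6570 and 10114 CPM. Unnamed clusters 22 and 28 lay at 38813 and 73482 CPM, and the others lay between. The libraries differ in chemistry, so levels are not compared between them. Along the granulocyte lineage of the intracardiac cells, the pooled level was 32214 CPM in precursor cluster 19, 17571 CPM in cluster 24 and 11016 CPM in cluster 15. The 5 neutrophil clusters all lay lower, at 10113 CPM in cluster 13, 9631 CPM in cluster 17, 8661 CPM in cluster 16, 8140 CPM in cluster 23 and 7457 CPM in cluster 14. The median UMI count per cell was 35154 in cluster 19, 23831 in cluster 24 and 11654 in cluster 15, and 2420 to 7385 in the neutrophil clusters. Among the latter, clusters 13 and 17 held the higher subunit levels at 2822 and 2420 UMIs per cell. The part of depth in these levels was not tested.

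Gene by gene, 80 members reached 50 CPM in at least 1 of the 12 classes. The lowest class was the neutrophils for 65 of them (81.2%), against 1853 of the 5799 genes that reached that level, and the highest was the monocytes for 43 (53.8%), against 6.6%. Neutrophils were also lowest for 77 of 81 ribosomal protein genes. Cox6a2, at 1237 CPM in plasmacytoid dendritic cells and 0 in basophils, has no defined ratio of highest to lowest class. Over the other members of the 80 the median ratio was 4.3. Among these Ndufaf2, a late complex I assembly factor, had the widest ratio, 64.2, with 61.6 CPM in endothelial cells and 0.96 CPM in neutrophils. Ndufa5 followed with a ratio of 28.04, then the c-ring genes Atp5g2 (17.7) and Atp5g1 (16.0) and the complex I subunit Ndufc2 (15.6). The narrowest ratios were those of Ndufa3 (2.0), Ndufb9 (2.06), Ndufa7 (2.07), Ndufb7 (2.15) and Atp5f1 (2.36). The share of complex I in the summed level was close in both end classes, at 30.8% ± 1.87 in neutrophils and 30.4% ± 0.38 in monocytes (n = 16 each). In the same order, complex V made 27.06% ± 0.41 and 29.16% ± 0.34 and complex II 1.74% ± 0.33 and 1.34% ± 0.14. Complex III made 9.71% ± 0.67 and 9.8% ± 0.25 and complex IV 30.66% ± 1.3 and 29.26% ± 0.47.

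Some subunits of complex IV have isoforms of restricted use, whose levels differed between the classes. Cox6a2, the heart and muscle isoform, averaged 1237 ± 244 CPM in plasmacytoid dendritic cells of the intracardiac samples (n = 10, range 865 to 1767) and 753 ± 98.5 CPM in those of the IIA library (n = 6). It averaged 59.5 ± 39.4 CPM in tagged microglia (n = 4) and was at 0 in basophils of the intracardiac samples. Cox6b2, the testis isoform, averaged 346 ± 57.7 CPM in untagged IIA erythroid cells and 132 ± 58.7 CPM in untagged IIA stem or progenitor cells (n = 6 each), and 85.5 ± 25.7 CPM in tagged alveolar macrophages of lung (n = 4). Cox7a1, the muscle isoform, was low. It averaged 13.7 ± 3.73 CPM in tagged (n = 5) and 3.56 ± 3.36 CPM in untagged IIA macrophages (n = 6), 11.6 ± 1.85 CPM in tagged lung macrophages and 7.74 ± 2.30 CPM in tagged lung alveolar macrophages (n = 4 each). Ndufa4l2, which is induced by hypoxia, averaged 28.9 ± 9.10 CPM in tagged (n = 4) and 11.3 ± 9.26 CPM in untagged IIA stromal cells (n = 5). Cox4i2, the lung isoform of subunit 4, stood at 91.1 CPM in endothelial cells of 1 tagged lung sample and at 8.79 CPM in those of 1 tagged liver sample, and at 0 in those of the other 5 tagged samples. Cox8c had no UMI in either experiment, Cox7b2 had 2 in the IIA library only, and Cox8b had 36 in the intracardiac samples only.

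**Figure D2:**
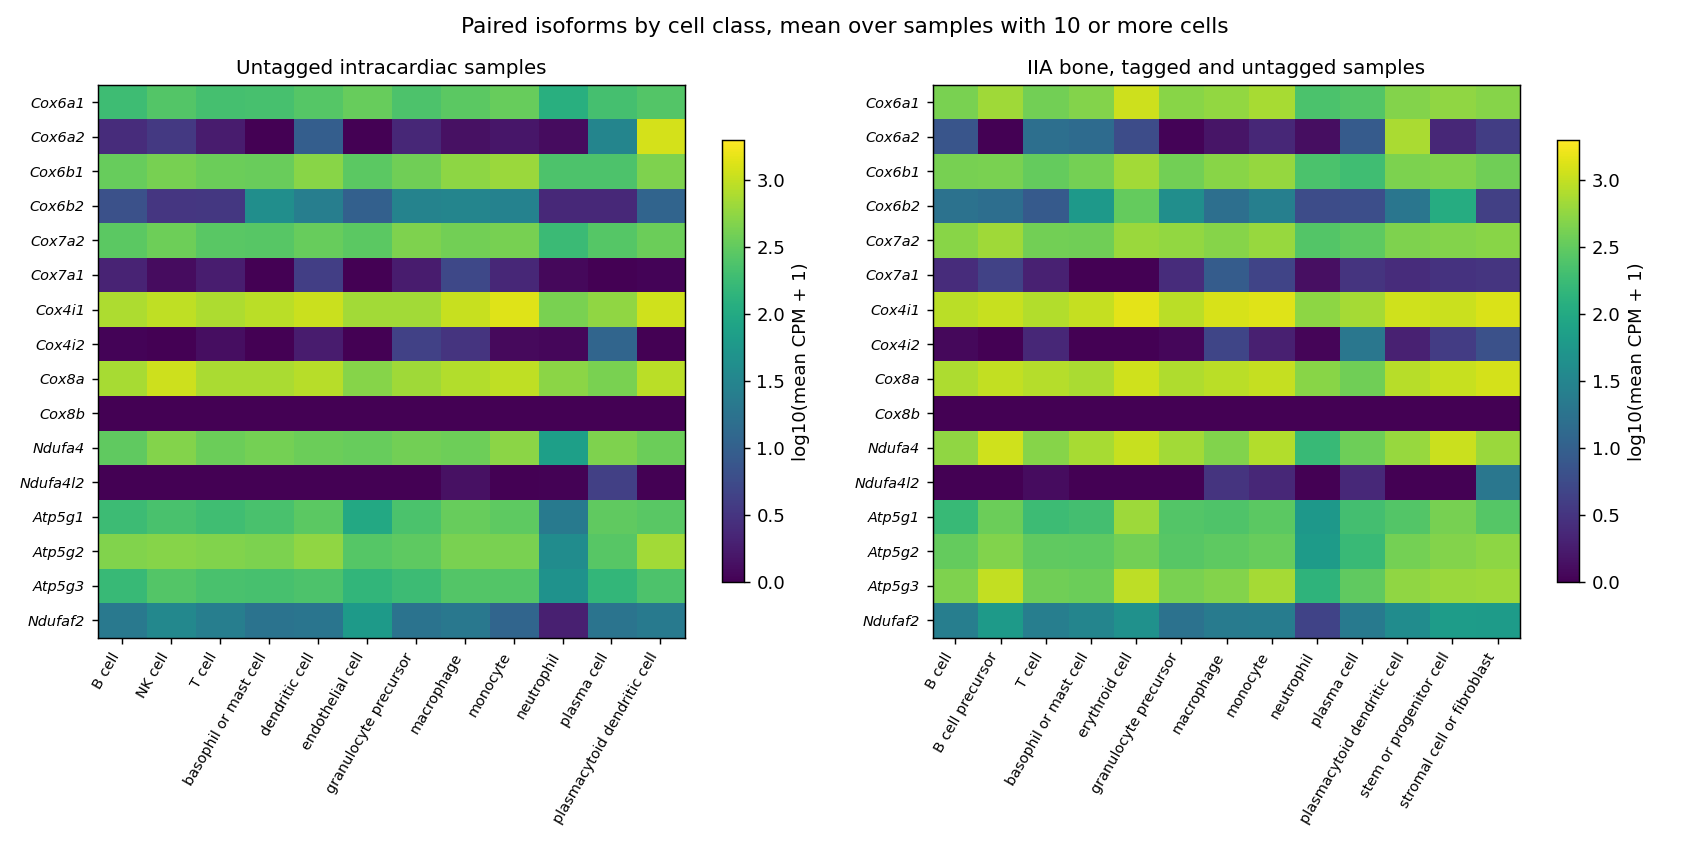
Heat map of log10(mean CPM + 1) for paired isoforms and related members (rows) in each cell class (columns), in untagged intracardiac samples (left) and in all IIA bone samples (right). Cox6a2 is bright in plasmacytoid dendritic cells (mean 1237 and 753 CPM) and Cox6b2 in IIA erythroid cells (333 CPM over 6 untagged and 1 tagged sample).

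The first tested comparison asked whether tagged and untagged phagocytes differ, and it was clearest in brain. Of 87 members tested in brain phagocytes, 67 were lower and 1 was higher in tagged cells, where 36.2% of all 9334 genes tested were called (18.4% lower and 17.8% higher). The median log2 fold change of the members was -0.89, against 0.03 over all genes. The summed subunit level was 16363, 15575, 16220 and 13743 CPM in the 4 tagged samples and 24990, 22989, 23873 and 23803 CPM in the 4 untagged samples. Every tagged sample lay below every untagged one.

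Complex I had 27 of 37 members lower. Ndufb1-ps, listed under a pseudogene-style symbol, was at 246, 319, 340 and 164 CPM in tagged and 556, 751, 827 and 551 CPM in untagged samples, without overlap (log2 fold change -1.60 ± 0.28, adjusted p = 0.00216). Ndufv1, which holds the NADH binding site, fell from 61.8 ± 16.4 to 39.2 ± 3.68 CPM (-0.94 ± 0.20, adjusted p = 0.00591). Ndufs1, the largest iron-sulfur subunit, did not pass: its values of 36.2, 22.0, 24.4 and 23.8 CPM in tagged cells overlapped those of 30.4, 28.9, 21.8 and 27.97 CPM in untagged cells (-0.34 ± 0.19, adjusted p = 0.196). Among the assembly factors 1 of 7 was lower, Ndufaf3, and their median was -0.26.

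In complex II the iron-sulfur subunit Sdhb was at 99.8, 70.7, 95.9 and 96.3 CPM in tagged and 153, 130, 127 and 138 CPM in untagged samples, without overlap (-0.89 ± 0.15, adjusted p = 0.00187). Sdhd, a membrane anchor, was lower too, whereas the flavoprotein Sdha had a log2 fold change of -0.02 ± 0.18 (adjusted p = 0.933) and Sdhc was not called. Complex III had 7 of 8 members lower. Its Rieske iron-sulfur protein Uqcrfs1 was at 98.8, 61.4, 74.8 and 82.5 CPM in tagged and 189, 128, 119 and 162 CPM in untagged samples (-1.21 ± 0.19, adjusted p = 0.00159), and its core protein Uqcrc1 fell by 0.84 ± 0.20 (adjusted p = 0.00804).

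Complex IV had 13 of 14 tested members lower and 1 higher. Cox5b, a subunit of its matrix face, was at 267, 287, 257 and 238 CPM in tagged and 584, 483, 502 and 552 CPM in untagged samples, a gap wider than either group (-1.29 ± 0.16, adjusted p = 0.000652). Cox5a (-1.21 ± 0.20, adjusted p = 0.00162), Cox6c (-1.12 ± 0.20, adjusted p = 0.0022), Ndufa4 (-0.96 ± 0.15, adjusted p = 0.00143) and Cox4i1 (-0.86 ± 0.16, adjusted p = 0.00321) fell as well. The exception was Cox6a2, at 6.85, 1.12, 43.9 and 87.7 CPM in tagged and 0.37, 0, 0.91 and 6.26 CPM in untagged samples, overlapping ranges in which tagged replicates 3 and 4 stood high (3.75 ± 1.23, adjusted p = 0.0373). That call was lost without any of untagged replicates 1 (3.35), 2 (3.36) or 3 (3.52) or tagged replicates 3 (3.62) or 4 (2.47).

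All 17 complex V members tested were lower, with a median of -1.02. Atp5c1, the central shaft subunit, was at 241, 156, 177 and 179 CPM in tagged and 489, 288, 335 and 398 CPM in untagged samples (-1.29 ± 0.20, adjusted p = 0.00145). Atp5l, a membrane subunit, was at 467, 474, 470 and 345 CPM against 848, 901, 873 and 796 CPM (-1.23 ± 0.18, adjusted p = 0.00106), again without overlap. The smallest change was that of Atp5g2 at -0.39 ± 0.13 (adjusted p = 0.0421), and the catalytic Atp5b (-0.66 ± 0.16, adjusted p = 0.011) and Atp5a1 (-0.72 ± 0.16, adjusted p = 0.00682) lay between. The remaining members with the strongest falls were Cox7b (-1.21), Atp5o (-1.21), Cox6b2 (-1.21) and Atp5e (-1.19). With library size scaling 50 members were lower and 1 higher, where 39.9% of all genes were called, and the members' median was -0.59 against 0.32 over all genes.

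Neighbouring pathways did not all move like the members in brain phagocytes. None of the 13 mitochondrially encoded subunits was called by edgeR, at an unadjusted p under 0.05 none passed either (46.4% of all genes did), and their median was 0.27. Of 13 citrate cycle genes tested 6 were lower and 1 higher (median -0.53), and of 14 glycolysis genes 11 were lower and 1 higher (median -1.10). Of 31 electron carriers and assembly genes 8 were lower and 2 higher, and among 11 transcription regulators of mitochondrial genes 1 was higher and 0 lower.

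Tagged and untagged brain phagocytes were made of different clusters. Of the tagged phagocytes 3.9% were monocytes, 64.7% macrophages and 31.1% microglia, while 76.8% of the untagged ones were monocytes and 20.5% macrophages. Within narrower sets of clusters, tests chosen after the data were seen gave 0 called members. Among macrophages and microglia without monocytes, the members' median was -0.37 over 82 tested. At an unadjusted p under 0.05 there were 14 members and 14.4% of all genes, and 0.131% of all genes were called. The summed level was 15263, 15410, 15261 and 13254 CPM in tagged and 24144, 16976, 15454 and 14792 CPM in untagged samples, which overlapped, and it was lower in the tagged sample of all 4 replicate numbers. This set also held different clusters in the 2 sorts: 60.4% of its tagged cells lay in macrophage cluster 35 and 32.4% in microglia cluster 37, whereas 70.6% of the untagged ones lay in macrophage cluster 30. Among monocytes the median was -0.34 over 86 tested, from 3 tagged samples with 45 cells against 4 untagged samples, and the summed level was lower in the tagged sample of all 3 numbers. Cluster 18 held 36.5% of the tagged and 16.8% of the untagged brain monocytes and cluster 2 held 30.8% and 51.9%, and the part of these clusters, whose levels are given with lung below, was not tested. There 8 members and 6% of all genes had an unadjusted p under 0.05, and 0% of all genes were called. In macrophage cluster 30 alone, with 75 tagged cells, the median was 0.05, 1 of 75 members and 2.16% of all genes had an unadjusted p under 0.05, and 0% of all genes were called. In a sum over the phagocyte set, a change in the shares of cell types and a change of RNA per cell cannot be told apart.

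**Figure D3:**
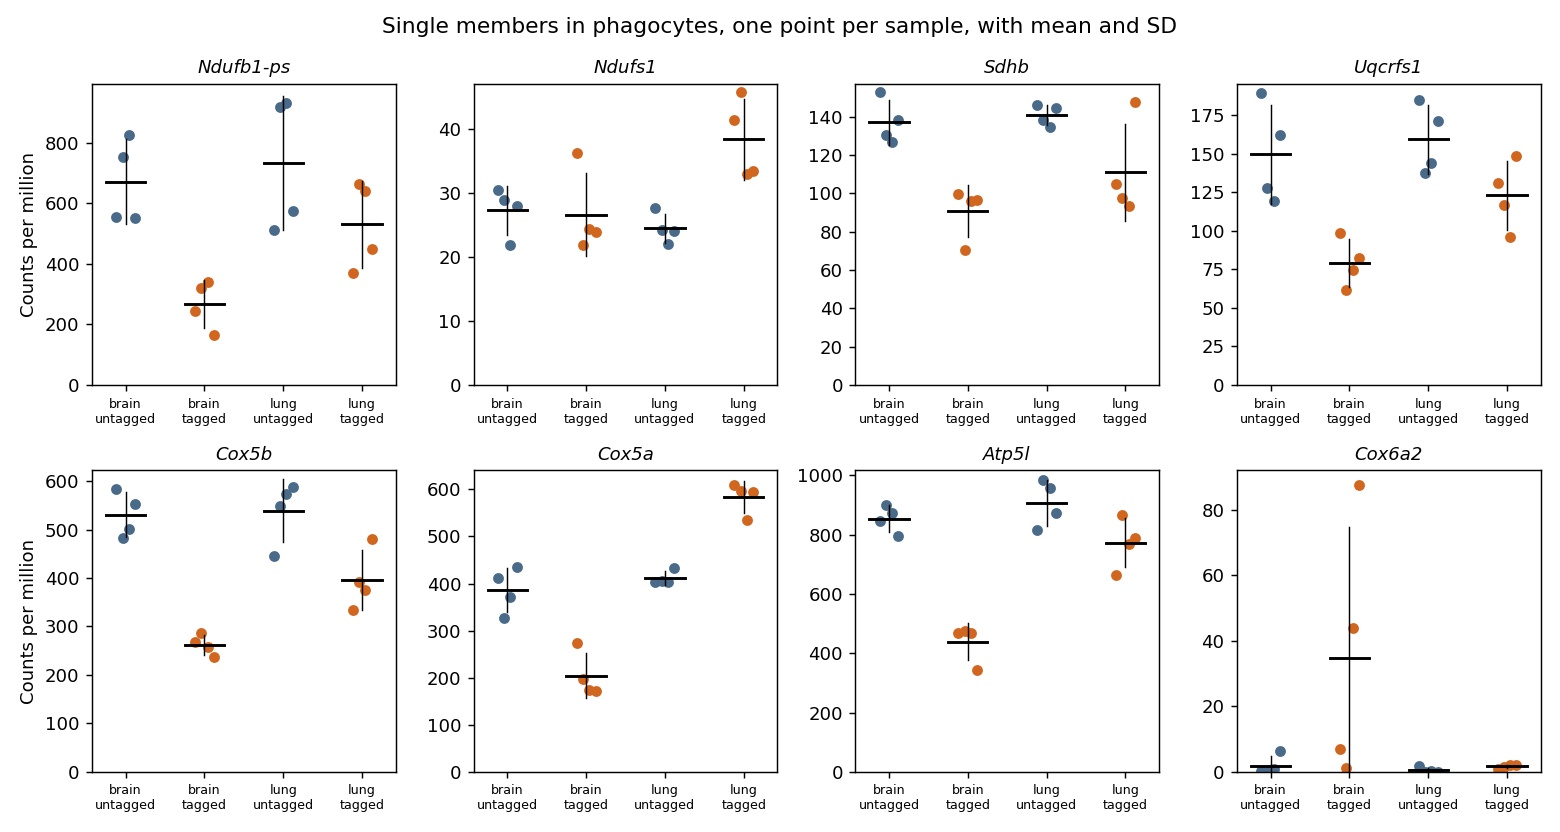
CPM of 8 members in untagged (blue) and tagged (orange) phagocytes of brain and lung, with 1 point per sample, a horizontal bar at the mean and a vertical line of 1 SD to each side. In brain, Cox5b lies at 238 to 287 CPM in tagged and 483 to 584 CPM in untagged samples.

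Lung phagocytes showed a smaller shift in the same direction. Of 88 members tested 35 were lower and 3 higher in tagged cells, against 38.7% of 10117 genes called (18.4% lower and 20.4% higher), and the members' median was -0.41 against 0.03. The summed subunit level, at 20440, 24824, 23000 and 24820 CPM in tagged and 22116, 26099, 27021 and 25894 CPM in untagged samples, overlapped between the sorts and was lower in the tagged sample of all 4 replicate numbers. With the replicate number as a block 56 members were lower and 6 higher, where 49.8% of all genes were called. With library size scaling 12 were lower and 10 higher, where 45.6% of all genes were called. Under that scaling the members' median was -0.10 against 0.35 over all genes.

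Ndufaf7, a complex I assembly factor, had the largest fall: 13.3, 11.01, 15.2 and 17.4 CPM in tagged and 48.0, 28.5, 29.3 and 40.6 CPM in untagged samples, without overlap (-1.71 ± 0.24, adjusted p = 0.000626). Ndufs8, an iron-sulfur subunit of complex I, was at 80.8, 91.8, 67.2 and 84.2 CPM against 122, 121, 139 and 135 CPM (-0.98 ± 0.14, adjusted p = 0.000633). Atp5h, subunit d of the ATP synthase stalk, was at 502, 528, 529 and 583 CPM against 749, 689, 792 and 823 CPM (-0.82 ± 0.14, adjusted p = 0.00137). None of these 3 members overlapped between the sorts. The other members of the 10 largest falls were Ndufb11 (-0.92), Ndufaf3 (-0.85), Ndufa6 (-0.82), Atp5c1 (-0.78), Ndufb1-ps (-0.78), Atp5d (-0.77) and Cox5b (-0.75). By complex, 18 of 37 genes of complex I, 2 of 8 assembly factors, 1 of 4 of complex II, 3 of 8 of complex III, 4 of 14 of complex IV and 7 of 17 of complex V were lower.

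The 3 higher members of lung phagocytes were Cox7a1, Cox6b2 and Ndufaf2. Cox7a1 was at 6.05, 9.70, 8.88 and 8.24 CPM in tagged and 2.38, 2.13, 1.91 and 3.36 CPM in untagged samples, low but separate levels (1.42 ± 0.27, adjusted p = 0.00268). Cox6b2 was at 53.9, 74.4, 93.1 and 29.1 CPM against 21.8, 32.5, 25.7 and 24.6 CPM, with tagged replicate 4 inside the untagged range (0.95 ± 0.28, adjusted p = 0.0214). That call was lost without any of untagged replicates 1 (0.88), 3 (0.93) or 4 (0.91) or tagged replicates 2 (0.88) or 3 (0.72). Ndufaf2 was at 21.5, 26.2, 32.2 and 15.2 CPM against 11.2, 9.33, 13.4 and 12.4 CPM, without overlap (0.72 ± 0.22, adjusted p = 0.0239). Its call was lost without untagged replicate 2 (0.61) or tagged replicates 2 (0.69) or 3 (0.57), whereas that of Cox7a1 held without any single sample. Cox5a was at 610, 596, 535 and 595 CPM in tagged and 403, 405, 403 and 433 CPM in untagged samples, yet after TMM scaling its fold change was 0.20 ± 0.13 (adjusted p = 0.23). Of the mitochondrially encoded subunits 2 of 13 were higher and 0 lower, with a median of 0.47.

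Of the tagged lung phagocytes 76.9% were alveolar macrophages and 5.5% monocytes, and of the untagged ones 87.1% were monocytes. Among lung macrophage clusters without monocytes 1 of 87 members was called (12.9% of all genes, 6.49% higher and 6.38% lower), Ndufs1, which was higher (0.75 ± 0.22, adjusted p = 0.0451), and the median was -0.21. With the replicate block 3 were higher and 4 lower, where 22.1% of all genes were called. Of these tagged macrophages 78.4% lay in cluster 31, the alveolar macrophages, and 83.7% of the untagged ones lay in cluster 30. Among lung monocytes 0 of 87 members were called (0% of all genes) and the median was -0.26. At an unadjusted p under 0.05 there were 16 members and 6.67% of all genes, and with the block 16 members were lower, where 4.3% of all genes were called. Of the tagged lung monocytes 50.4% lay in cluster 18 and 46.7% in cluster 2, and of the untagged ones 17.02% and 81.5%. The pooled subunit level was 16734 CPM in cluster 18 and 27219 CPM in cluster 2, and the part of this make-up in the monocyte values was not tested. In cluster 30 the median was 0.05 and 0 of 81 were called (0% of all genes), with 3 members and 12.9% of all genes at an unadjusted p under 0.05. With the block 1 was higher there, where 7.62% of all genes were called.

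Liver and bone phagocytes gave no edgeR call without the replicate block. With it 1 member was called in liver, a count given without a share of all genes and not read further. In liver, 0 of 88 members passed (0% of all genes called), with 47 at an unadjusted p under 0.05 (22.7% of all genes) and a median of -0.63 against 0.04 over all genes. The summed level was 21704, 15612 and 20561 CPM in 3 tagged samples and 24865, 26187, 27012 and 25667 CPM in 4 untagged samples, without overlap; tagged replicate 4 held 3 phagocytes and did not enter. DESeq2 called 6 members, all lower, where it called 6.44% of all genes. Without tagged replicate 1 edgeR called 19, all lower, where 11.4% of all genes were called. The smallest unadjusted p-values belonged to Ndufa6 (-0.87 ± 0.25), Ndufaf7 (-1.36 ± 0.40) and Ndufs4 (-0.84 ± 0.26), with adjusted p from 0.114 to 0.131. Within narrower sets no member passed, where at most 0.0161% of all genes were called. The median was -0.40 in liver macrophages, -0.32 in monocytes and -0.10 in cluster 30. The summed level was lower in the tagged sample of all 3 replicate numbers in liver macrophages and in monocytes, and of 2 of 3 in cluster 30. At an unadjusted p under 0.05 there were 8 of 84 members (13.4% of all genes), 12 of 84 (2.75%) and 0 of 82 (8%). Tagged liver macrophages lay for 75.8% in cluster 33 and untagged ones for 87.0% in cluster 30. In bone, 0 of 87 passed where 2.83% of all genes were called (18 at an unadjusted p under 0.05, against 20.8% of all genes, DESeq2 1 with 3.49% of all genes, median -0.27), led by Ndufb11 (-0.69 ± 0.20, adjusted p = 0.09). Leaving out tagged replicate 3 gave 2 bone calls (5.58% of all genes) and leaving out tagged replicate 4 gave 1 (4.06%), all lower. Monocytes made 97.3% of untagged and 28.1% of tagged bone phagocytes, and 82.4% and 17.7% in liver.

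In IIA bone phagocytes 13 of 87 members were lower and 4 higher in tagged cells, against 28.3% of 9498 genes called (11.8% lower and 16.5% higher), and the members' median was -0.10 against 0.01. The summed subunit level was 26774 ± 2117 CPM in tagged (range 24152 to 29755) and 31263 ± 1594 CPM in untagged samples (range 28575 to 32934; SD, n = 6 each). These ranges overlapped, and the level was lower in the tagged sample of all 6 injection numbers. Cox6b2 fell most, at 5.78, 7.56, 10.6, 7.56, 20.5 and 15.7 CPM in tagged and 30.9, 28.8, 32.3, 26.3, 24.8 and 27.2 CPM in untagged samples, without overlap (-1.21 ± 0.23, adjusted p = 0.000905). Ndufa4 was at 474, 299, 399, 733, 601 and 613 CPM against 794, 696, 836, 810, 867 and 882 CPM, overlapping through tagged injection 4 (-0.59 ± 0.15, adjusted p = 0.00869). Atp5h was at 804, 605, 634, 718, 708 and 711 CPM against 1001, 935, 997, 1025, 1076 and 1052 CPM, without overlap (-0.45 ± 0.09, adjusted p = 0.00211). Complex I held 7 of the 13 lower members, among them Ndufb11 (-0.48 ± 0.11, adjusted p = 0.00454) and Ndufb3 (-0.47 ± 0.11, adjusted p = 0.00453).

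The 4 higher members of IIA phagocytes were Ndufaf4 (0.70 ± 0.21, adjusted p = 0.0215), Ndufab1 (0.56 ± 0.14, adjusted p = 0.00635), Ndufv3 (0.45 ± 0.14, adjusted p = 0.0244) and Sdhc (0.41 ± 0.12, adjusted p = 0.0172). Ndufab1, the mitochondrial acyl carrier protein, was at 243, 180, 185, 174, 160 and 192 CPM in tagged and 134, 109, 136, 123, 146 and 179 CPM in untagged samples, with overlap. Its call held without any single sample. Those of Ndufaf4, Sdhc and Ndufv3 were lost without 4, 6 and 8 of the 12 samples, taken 1 at a time, with fold changes of 0.56 to 0.69, 0.32 to 0.37 and 0.35 to 0.43. Leaving out 1 sample gave 2 to 8 higher members, with 8 without tagged injection 4 and 2 without untagged injections 1 or 3 or tagged injections 1, 2 or 3. It gave 11 to 21 lower ones, with 21 without tagged injection 1 and 20 without tagged injection 6. Of 14 glycolysis genes 7 were higher and 0 lower (median 0.74), and 0 of the 13 mitochondrially encoded subunits were called by edgeR (1 at an unadjusted p under 0.05, as 39.5% of all genes were, median 0.14). Library size scaling gave 28 lower and 2 higher members (30.3% of all genes called) and DESeq2 22 lower and 6 higher (27.4%). Monocytes made 13.4% of tagged and 81.7% of untagged cells. Among IIA macrophages alone (5 tagged against 6 untagged samples) 6 members were higher and 1 lower of 81, where 25.4% of all genes were called (12.3% higher and 13.1% lower): Ndufab1 (0.78 ± 0.22), Sdhc (0.76 ± 0.19), Ndufv3 (0.68 ± 0.15), Ndufaf8 (0.54 ± 0.18), Ndufs5 (0.54 ± 0.17) and Uqcr11 (0.50 ± 0.14) rose and Uqcrh fell by 0.43 ± 0.13. Ndufab1, Sdhc and Ndufv3 were called higher in the phagocyte set and in its macrophages. Macrophages made 86.6% of the tagged phagocytes, so the second call rests largely on the same cells and adds no separate support. The 6 higher calls among macrophages were a smaller share than that of all genes. Within macrophage cluster 0 alone 7 were higher and 2 lower of 81 (24.9% of all genes called, 12.7% higher and 12.3% lower). Among IIA monocytes 0 of 86 were called by edgeR (6 at an unadjusted p under 0.05, as were 10.1% of all genes; 0.517% of all genes called).

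Of the 67 members lower in brain phagocytes and the 35 lower in lung phagocytes 32 were the same genes, 47.8% of the brain list and 91.4% of the lung list. The 13 of IIA bone shared 12 with brain (17.9% and 92.3%) and 11 with lung (31.4% and 84.6%). The 10 members lower in all 3 were Atp5h, Cox5b, Ndufa13, Ndufa4, Ndufaf3, Ndufb1-ps, Ndufb10, Ndufb11, Ndufb2 and Ndufb3. Since 67 of the 87 members tested were lower in brain, most of any list of members lies within the brain list, and nothing is read from the size of these overlaps. The 3 comparisons use different samples, but same-numbered brain and lung samples were read as 1 pool.

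**Figure D4:**
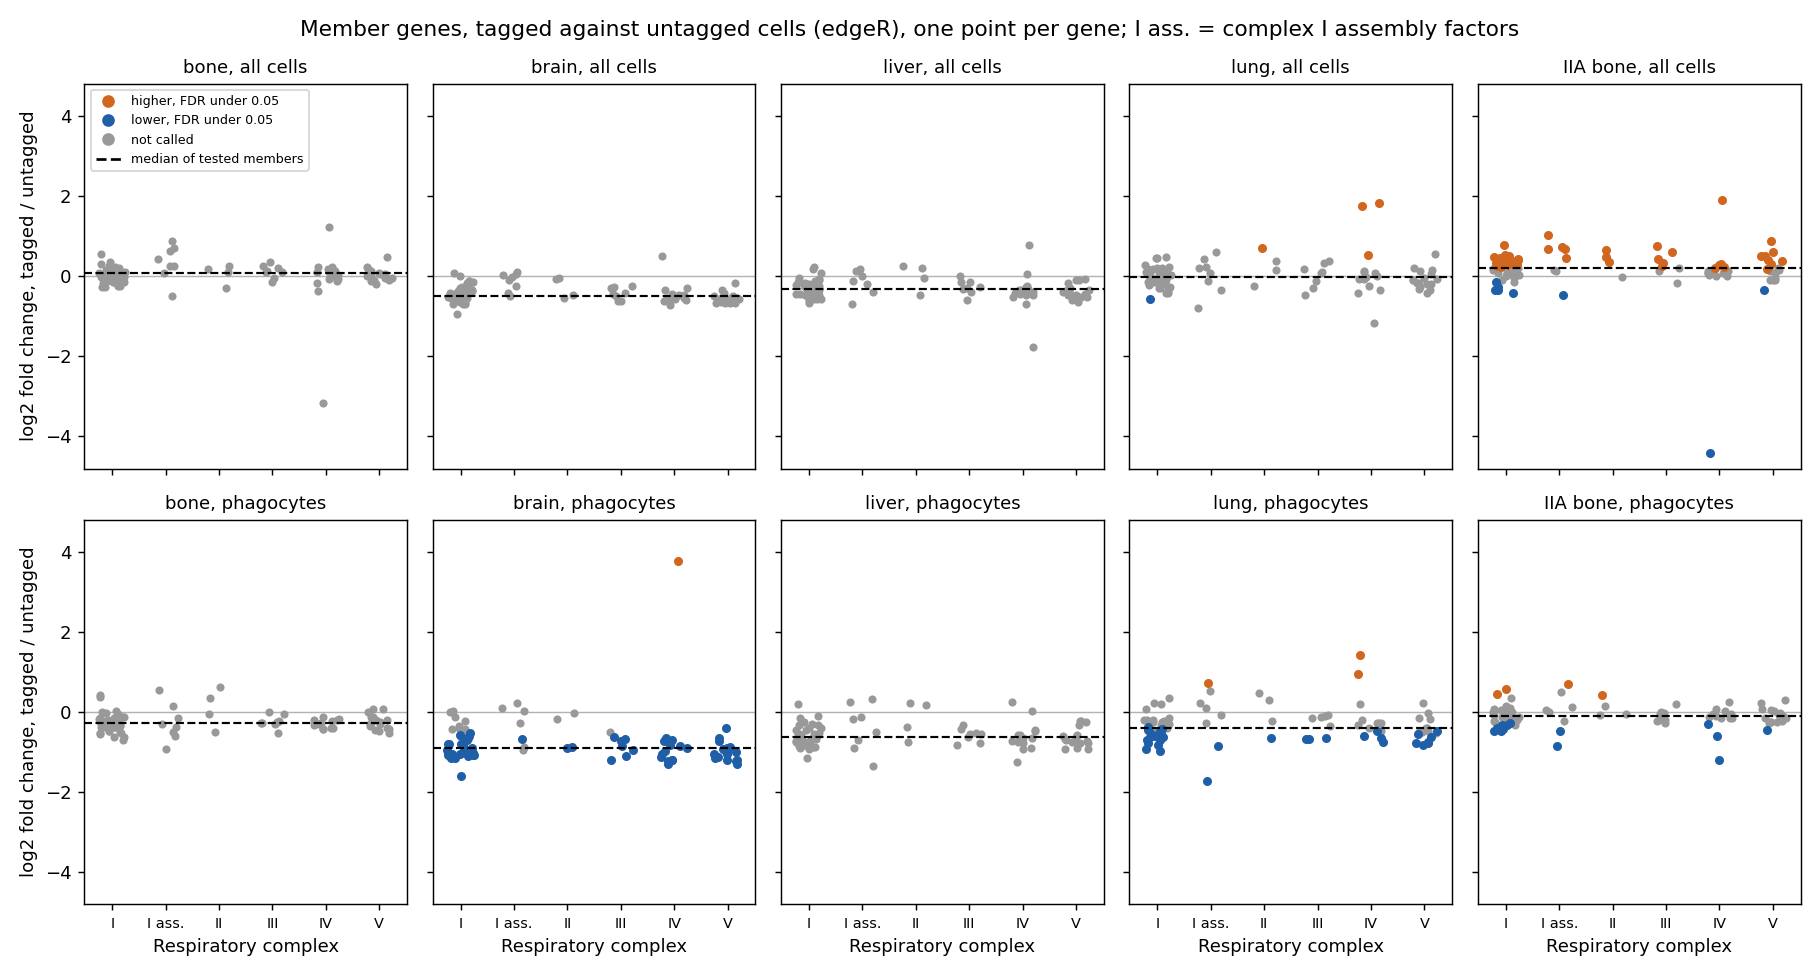
Log2 fold changes (tagged over untagged, y axis) of the tested members by complex, in all kept cells (top) and phagocytes (bottom) of each tissue and IIA bone; called members are orange (higher) or blue (lower) and the dashed line is the members' median. Among phagocytes, with TMM scaling, the median is -0.89 in brain and -0.10 in IIA bone; with library size scaling it is -0.59 and -0.21.

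All kept cells of IIA bone went the other way. Of 89 members tested 44 were higher and 8 lower in tagged cells, against 50.2% of 12625 genes called (27% higher and 23.2% lower), with a median of 0.20 against 0.08. With library size scaling 71 were higher and 2 lower, where 57.9% of all genes were called, and Ndufs4 turned from -0.14 to 0.10. The summed subunit level was 27920, 24584, 29889, 26026, 29818 and 25463 CPM in tagged and 21076, 20681, 20478, 22402, 20212 and 21575 CPM in untagged samples, and all tagged samples lay above all untagged ones.

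Complex I had 18 of 37 members higher and 5 lower. Ndufab1 was at 212, 186, 228, 188, 218 and 171 CPM in tagged and 96.5, 93.9, 98.5, 106, 87.8 and 109 CPM in untagged cells (0.79 ± 0.08, adjusted p = 1.64e-05). Of the assembly factors 5 of 8 were higher and 1 lower: Ndufaf4 rose most, with 41.4, 28.8, 31.3, 44.7, 38.8 and 45.1 CPM against 14.2, 17.1, 13.5, 19.9, 13.4 and 17.6 CPM (1.02 ± 0.14, adjusted p = 8.34e-05), and Ndufaf7 fell (-0.46 ± 0.12, adjusted p = 0.0063). Neither rising gene overlapped between the sorts. Ndufb1-ps was lower (-0.42 ± 0.07, adjusted p = 0.000278), with 383, 352, 375, 327, 389 and 361 CPM against 413, 409, 392, 437, 394 and 435 CPM, and so were Ndufa13 (-0.35), Ndufb7 (-0.34), Ndufb11 (-0.26) and Ndufs4. Ndufs1 (0.22 ± 0.08, adjusted p = 0.0304) and Ndufv1 (0.40 ± 0.08, adjusted p = 0.00123) rose.

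Complex II had 3 of 4 members higher: Sdhc (0.65 ± 0.11, adjusted p = 0.000584), Sdha (0.47 ± 0.10, adjusted p = 0.00272) and Sdhd (0.35), whereas Sdhb was at -0.02 ± 0.15 (adjusted p = 0.913). Complex III had 5 of 8 higher, led by its small subunit Uqcr11, at 711, 542, 740, 740, 860 and 669 CPM in tagged and 347, 344, 354, 386, 334 and 381 CPM in untagged samples, without overlap (0.75 ± 0.09, adjusted p = 5.6e-05). Uqcrc1 (0.60 ± 0.11, adjusted p = 0.000887) and Uqcrfs1 (0.33 ± 0.11, adjusted p = 0.0196) rose too.

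Complex IV had 5 of 15 tested members higher and 1 lower. Cox6a2 was the largest change of the list, at 0, 4.65, 0.46, 1.40, 1.51 and 0.84 CPM in tagged and 37.1, 16.9, 30.5, 28.3, 19.0 and 22.1 CPM in untagged samples (-4.41 ± 0.51, adjusted p = 3.38e-05). Plasmacytoid dendritic cells, its main class, made 2.94% ± 0.77 of untagged and 0.41% ± 0.61 of tagged IIA cells (SD, n = 6 each), and their part in the fall was not tested. Cox7a1 averaged 7.85 ± 8.21 CPM in tagged and 1.78 ± 0.38 CPM in untagged samples (1.91 ± 0.62, adjusted p = 0.0222), and its fold change was 1.18 and no longer called without tagged injection 3. Cox4i1 (0.07 ± 0.09, adjusted p = 0.513), Cox6c (0.08 ± 0.08, adjusted p = 0.42) and Ndufa4 (0.12 ± 0.15, adjusted p = 0.52) did not pass. Complex V had 8 of 17 members higher and 1 lower. Atp5g1, a gene of the c ring, was at 360, 288, 373, 387, 495 and 371 CPM in tagged and 164, 159, 168, 198, 162 and 193 CPM in untagged samples (0.88 ± 0.11, adjusted p = 7.32e-05), and Atp5g2 (0.61 ± 0.07, adjusted p = 1.86e-05), Atp5b (0.51 ± 0.08, adjusted p = 0.00017) and Atp5a1 (0.40 ± 0.08, adjusted p = 0.00185) rose, while Atp5h fell by 0.34 ± 0.07 (adjusted p = 0.00109).

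In the same cells, where 27% of all genes were called higher and 23.2% lower, all 13 mitochondrially encoded subunits were higher (median 0.70). Of 13 citrate cycle genes 8 were higher and 1 lower, of 34 carriers and assembly genes 17 and 4, and of 15 glycolysis genes 5 and 0, a share of higher calls near that of all genes.

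The make-up of the IIA cells differed between the sorts, and within precursor clusters 12 and 17 the called members were lower in tagged cells. Neutrophils made 22.5% ± 7.41 of untagged and 10.7% ± 5.35 of tagged IIA cells (SD, n = 6 each). Macrophages made 2.18% ± 1.38 and 18.9% ± 20.0 and granulocyte precursors 20.5% ± 5.86 and 27.0% ± 15.5. The part of these shares in the changes over all kept cells was not tested. Among all granulocyte precursors of IIA bone, 33 members were higher and 20 lower of 87, where 70.3% of all genes were called (36.2% higher and 34.2% lower). The higher calls were near the share of all genes and the lower calls below it. The largest changes were those of Ndufaf4 (2.01 ± 0.16), Ndufaf2 (1.35 ± 0.24), Atp5g1 (1.198 ± 0.118) and, downwards, Ndufa13 (-0.72 ± 0.09). Cluster 12 held 64.2% of the tagged and 2.6% of the untagged precursors, while clusters 2 and 3 held 49.4% and 43.6% of the untagged ones. Within cluster 12, 16 of 83 members were lower and 0 higher in tagged cells (2.28% of all genes called, 0.867% lower and 1.42% higher), with a summed level of 28276, 28320, 27450, 30339, 32742 and 29748 CPM in 6 tagged and 34182, 36605, 34170 and 34604 CPM in 4 untagged samples, without overlap. Cox6b2 (-0.96 ± 0.18, adjusted p = 0.00243), Ndufa13 (-0.58 ± 0.13, adjusted p = 0.0107), Uqcrb (-0.56 ± 0.10, adjusted p = 0.00196) and Atp5h (-0.53 ± 0.09, adjusted p = 0.00161) were among the 16. Within cluster 17, 3 of 77 were lower (4.83% of all genes called, 1.92% lower and 2.91% higher), Atp5h (-0.64 ± 0.14), Atp5l (-0.47 ± 0.13) and Atp5e (-0.41 ± 0.12). Within cluster 2, 0 of 82 were called by edgeR (13 at an unadjusted p under 0.05, as were 12.4% of all genes; 1.69% of all genes called). These cluster tests were chosen after the data were seen, and untagged cells of cluster 12 numbered 84.

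**Figure D5:**
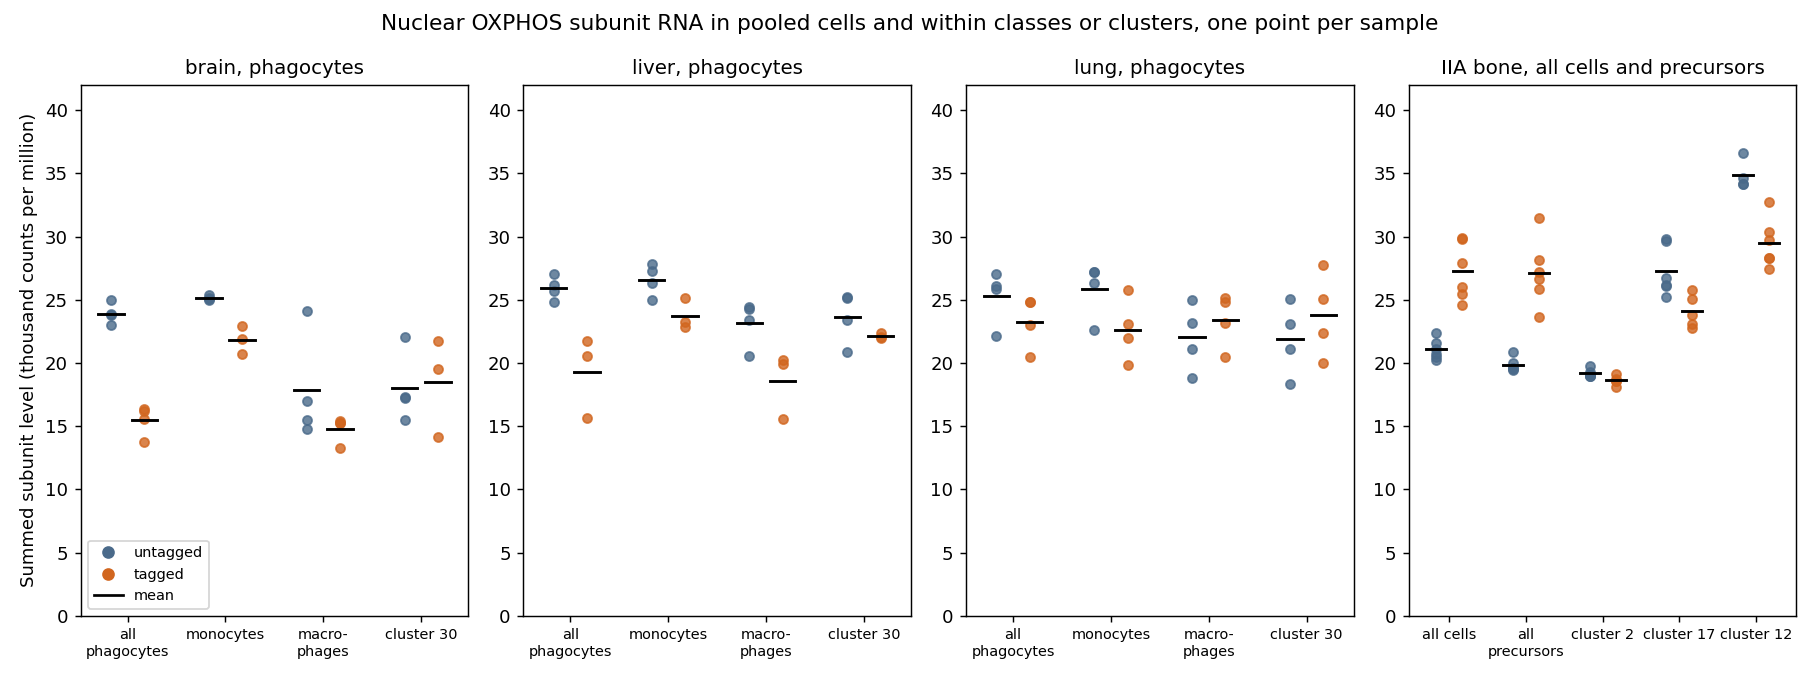
Summed subunit CPM (y axis, in kilo-CPM) of untagged (blue) and tagged (orange) samples in pooled cells and within classes or clusters, with 1 point per sample and a bar at the mean. In IIA bone the tagged samples lie above the untagged ones over all kept cells (24584 to 29889 against 20212 to 22402 CPM) and below them within precursor cluster 12 (27450 to 32742 against 34170 to 36605 CPM).

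Over all kept cells of the intracardiac tissues few members were called. In lung, 4 of 89 were higher and 1 lower, where 18.3% of all genes were called (11.5% higher and 6.8% lower), with a median of -0.02 against -0.04. Cox7a1 was at 4.92, 9.34, 5.29 and 4.31 CPM in tagged and 1.21, 1.27, 1.36 and 1.71 CPM in untagged samples (1.82 ± 0.31, adjusted p = 0.00595). Cox6b2 was at 43.2, 72.4, 55.4 and 15.7 CPM against 7.69, 13.6, 16.4 and 8.77 CPM, with tagged replicate 4 inside the untagged range (1.74 ± 0.42, adjusted p = 0.0223). Sdhc was at 78.3, 90.5, 45.4 and 52.0 CPM against 35.1, 29.3, 39.2 and 31.4 CPM (0.71 ± 0.18, adjusted p = 0.0261), Cox5a rose (0.52 ± 0.16, adjusted p = 0.0465) and Ndufb11 fell (-0.56 ± 0.15, adjusted p = 0.0328). The untagged replicate 3 of lung stood apart in its summed level, at 22428 CPM against 15444 to 16389 CPM in the other 3, and held 100 neutrophils among 2223 cells. Alveolar macrophages made 44.6% ± 27.5 of tagged and 0.284% ± 0.371 of untagged lung cells (SD, n = 4 each), and their part in these changes was not tested. Cox7a1 alone remained without untagged replicates 1 or 4 or tagged replicate 2, when 1 member was called, and DESeq2 called 5 higher and 7 lower (25.1% of all genes). Without tagged replicate 1 the count was 2, and without untagged or tagged replicate 3 it was 3.

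In brain 0 of 88 members were called over all kept cells (3.06% of all genes called), with 36 at an unadjusted p under 0.05 (21% of all genes), 20 by DESeq2 (all lower, 11.1% of all genes), 1 with the replicate block (6.89%) and 1 without tagged replicate 1 (6.65%); the median was -0.48 against -0.03. Ndufa1 (-0.70 ± 0.17), Ndufb1-ps (-0.94 ± 0.23) and Atp5l (-0.67 ± 0.18) had the smallest unadjusted p, with adjusted p from 0.0632 to 0.0837. Macrophages made 36.0% ± 31.8 of tagged and 4.55% ± 3.62 of untagged brain cells and microglia 18.8% ± 20.0 and 0.430% ± 0.245 (SD, n = 4 each), and their part was not tested. In liver 0 of 89 (9 at an unadjusted p under 0.05, against 13.3% of all genes, median -0.32) and in bone 0 of 90 (2, against 7.84%, median 0.07) were called, and in both 0% of all genes were. DESeq2 called 0 members in either. The summed level over all kept cells was lower in the tagged sample of all 4 replicate numbers in liver. It was lower in 3 of 4 in brain and in 1 of 4 each in bone and lung. Among bone granulocyte precursors alone 0 of 88 were called (2 at an unadjusted p under 0.05, as were 15.1% of all genes; 0% of all genes called), and with the replicate block 8 were higher and 6 lower, where 33.8% of all genes were called. The summed level of the precursors was 17085, 21310, 29260 and 24380 CPM in tagged and 15115, 17621, 21772 and 18122 CPM in untagged bone, overlapping but higher in the tagged sample of all 4 replicate numbers. Precursor cluster 19, the one with the highest level, held 30.04% of the tagged and 10.985% of the untagged cells and cluster 15, with the lowest, 35.3% and 56.0%, and their part was not tested.

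The difference between tissues was tested directly, the sort effect of each tissue over all kept cells against the mean of the other 3. For lung 1 member passed, Cox6b2, whose effect was 2.05 ± 0.46 higher in lung (adjusted p = 0.0116; 2.54% of all genes called, 1.93% higher and 0.616% lower). It was 1.83 and no longer past the threshold without tagged lung replicate 2. DESeq2 called 4 members, all higher (4.47% of all genes), the block 2 (6.14%), and edgeR without tagged lung replicate 3 called 2 (1.56%) and without tagged liver replicate 1 called 3 (2.57%). For brain 0 members passed (median -0.45; 0.301% of all genes called), or 4 lower ones without tagged brain replicate 1 (2.16%), and 0 passed for bone (median 0.31) and liver (median -0.19), where 0% of all genes were called. DESeq2 called 0 members for brain, bone and liver, and at an unadjusted p under 0.05 edgeR had 21 for brain (12% of all genes), 4 for bone (7.57%) and 0 for liver (3.71%).

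Neutrophils gave 0 calls between the sorts in the 4 tissues (0% of all genes called) and in IIA bone (0.0211%), by edgeR and by DESeq2, with 0 members at an unadjusted p under 0.05 in bone and lung, 1 in liver, 2 in brain and 7 in IIA bone. The shares of all genes at that p were 1.82% in bone, 0.926% in lung, 1.64% in liver, 1.68% in brain and 5.09% in IIA bone. With the replicate block 1 member was lower in brain, where 2.35% of all genes were called. Their summed level was 6614 to 9080 CPM in tagged and 6967 to 9510 CPM in untagged intracardiac samples, and 10507 to 12297 against 10905 to 11736 CPM in IIA bone. The mitochondrially encoded subunits had medians of 0.35 in bone, 0.94 in brain, 0.57 in liver, 0.83 in lung and 0.49 in IIA bone in the same cells, with 0 called. At an unadjusted p under 0.05 there were 1 of 12 in bone, 6 of 12 in brain, 0 of 12 in liver, 1 of 13 in lung and 9 of 11 in IIA bone, beside the shares of all genes given above. Across tissues, untagged bone neutrophils differed from those of the mean of brain, liver and lung in 7 of 81 members, 6 higher and 1 lower, where 9.13% of all genes were called (3.8% higher and 5.34% lower), a like share. Of the untagged bone neutrophils 53.5% lay in cluster 16 and 31.2% in cluster 13, whereas 48.8% of those of lung lay in cluster 23 and 31.0% in cluster 14, and the part of these clusters was not tested. Cox6c, at 254, 264, 255 and 243 CPM in bone, lay above all other tissues, which ran from 122 to 234 CPM (0.43 ± 0.12, adjusted p = 0.0376). Ndufv3 (0.76 ± 0.17, adjusted p = 0.0139) had 89.3, 133, 103 and 100 CPM in bone and 42.3 to 112 CPM elsewhere, with overlap. Atp5k (0.60 ± 0.18), Ndufa1 (0.58 ± 0.14), Ndufb7 (0.54 ± 0.13) and Ndufb10 (0.42 ± 0.12) rose and Ndufaf7 fell (-0.65 ± 0.19). With the replicate block 22 were higher and 2 lower, where 23.7% of all genes were called. Without bone replicate 2 the counts were 0 and 1, without bone replicate 3 both were 0, and without bone replicate 4 they were 2 and 0. Without brain replicate 2 or liver replicate 2 the count was 3, and without brain replicate 3, liver replicate 3 or lung replicate 4 it was 4. Untagged monocytes, T cells and B cells gave 0 calls between bone and the other tissues by edgeR and DESeq2, with 2, 0 and 1 members at an unadjusted p under 0.05 (6.96%, 7.4% and 6.39% of all genes), where 0.0429%, 0.105% and 0.13% of all genes were called.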

How the data were processed

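Single-cell RNA was measured in 32 intracardiac samples and in 1 pooled IIA bone library. The files deposited by the authors hold UMI counts for each barcode, made with cellranger 6.1.2 (intracardiac) and 7.1.0 (pooled), per the file headers; the submitters' processing notes name mm10, Cell Ranger and Seurat. Barcodes with at least 500 UMIs, 200 genes and at most 15% mitochondrial UMIs were kept, 55366 of 57065 intracardiac barcodes. In the pool, a barcode went to a hashtag with at least 10 counts and 3 times the next one, which assigned 22685 of 26666 and kept 22362. Doublets were scored but not removed; leaving out the top 5% was an alternative. Cells were clustered with scanpy 1.11.5 (2000 variable genes without the members, 30 components, resolution 1.0) and named from 28 marker lists, with naming thresholds set after the data were seen.

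Counts were summed per sample over a class with at least 10 cells, and tested with edgeR 4.0.16 (R 4.3.3) over all genes that passed its low-count filter. The named members were 12 fixed subunits, the restricted isoforms and the largest called changes. DESeq2 1.42.0, library size scaling, no filter, other cell filters, each sample left out and a replicate block were alternatives. Members and lists were chosen with earlier results of these data known. Intracardiac samples of 1 replicate number shared 0 barcodes over 112 sample pairs, against 341 over 384 other pairs, and carried 1 set of multiplexing tags, so the number was read as 1 pool and as a pairing. The 4 numbers used 3 tag sets, numbers 3 and 4 sharing 1, so the tags do not separate those 2 numbers. Deviations of same-numbered samples correlated at 0.224 to 0.733 over all kept cells, except -0.089 in lung replicate 3. The fits were tested on simulated counts for brain phagocytes, lung neutrophils, all bone cells and all IIA cells. They recovered 1.9%, 1.8%, 0% and 24.6% of 1.5-fold changes in that order. For 2-fold changes the shares were 18.2%, 30.6%, 10.4% and 49.2%, and for 4-fold changes 84.3%, 91.5%, 66.2% and 88.9%. A count of 0 calls is therefore not a sign that small changes are absent. Intervals and tests cover these samples only.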

Additional observations from a re-analysis of the deposited data

Results flagged for a closer look

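The summed subunit level over all kept cells of untagged lung replicate 3 was 22428 CPM, against 15444 to 16389 CPM in the other 3 untagged lung samples. Its gap to the nearest sample was 0.865 of the group's range, above Dixon's critical value for 4 samples. This sample held 100 neutrophils among 2223 cells, against 801 of 2761, 1616 of 2519 and 1593 of 3081 in the others, and the part of neutrophils in its level was not tested. This was 1 of 42 groups examined, and chance passes about 1 in 20.

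The difference between sorts in Cox6b2, the testis isoform of a complex IV subunit, was larger in lung than in the mean of the other 3 tissues by 2.05 on the log2 scale over all kept cells, by edgeR's test of that difference itself. Alveolar macrophages, which made 76.9% of tagged lung phagocytes, held Cox6b2 at 85.5 ± 25.7 CPM in the tagged lung samples (n = 4), and their part in the difference was not tested.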

How the results depend on the processing

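Of the alternatives for counts of called members, 421 kept the result, 21 added calls, 25 lost calls and 7 turned the leading direction; the cause was not tested unless named. DESeq2 called 20 members over all brain cells, 12 over all lung cells (5 higher, 7 lower, against 4 and 1), 1 in bone, 6 in liver and 28 in IIA phagocytes, and 4 for the lung difference. Without the low-count filter there were 3 calls over all lung cells, 3 in bone and 1 in liver phagocytes. Counts given here without a share of all genes, the leave-one-out ranges among them, are not read as results about the members. Library size scaling gave 22 in lung and 30 in IIA phagocytes, and turned Ndufs4 over all IIA cells to 0.101. The replicate block gave 1 over all brain cells, 1 in liver and 62 in lung phagocytes, 1 in brain neutrophils, 24 in untagged neutrophils and 2 for the lung difference. In IIA bone, where samples share only an injection number (pair correlations 0.078 to 0.561 over all kept cells), the block lost Cox7a1 (1.31).

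Within single classes, chosen after the data were seen and with fewer cells, counts were 0 in T and 0 in B cells of lung, 0 in B cells, 0 in cluster 2, 16 lower in cluster 12 and 3 lower in cluster 17 of IIA bone. Brain phagocytes gave 0 in macrophages, 0 in monocytes and 0 in cluster 30; lung gave 1 higher, 0 and 0; IIA gave 7 in macrophages, 0 in monocytes and 9 in cluster 0. Leaving out 1 sample gave 0 to 1 calls over all brain, 1 to 5 over all lung and 45 to 54 over all IIA cells, 0 to 2 in bone, 61 to 67 in brain, 0 to 19 in liver, 28 to 47 in lung and 13 to 25 in IIA phagocytes, 0 to 10 in untagged neutrophils (1 lower and 0 higher without bone replicate 2), and, over all 32 samples of the tissue differences, 0 to 4 for brain and 1 to 3 for lung (3 without tagged liver replicate 1). Depth was lowest in the narrower sets: a sample with under 10 cells of a class gave no value there, and 45 tagged brain monocytes entered.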

Other observations

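A small unnamed cluster of IIA bone, led by Ctsk, Acp5 and Atp6v0d2, genes known from bone-resorbing cells, held 56 cells, 55 of them tagged and from 4 samples. Its summed subunit level was 73482 CPM, and 86 of the 90 members with at least 1 CPM over all IIA cells were above that level (95.6%), as were 36.6% of the 13214 genes with at least 1 CPM and 82 of 91 ribosomal protein genes. Cox7a1 stood at 114 CPM against 3.32 CPM, Sdhb at 381 CPM against 65.6 CPM, and Uqcr10, Uqcrfs1 and Ndufab1 at 5.49, 5.28 and 5.11 times their level over all IIA cells. Its median depth was 17432 UMIs per cell. The values are pooled over cells and carry no test.

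Another unnamed IIA cluster, of 333 cells, held 6570 CPM of nuclear subunits beside 56948 CPM of mitochondrially encoded ones.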
